A study of Mus musculus with 2 samples.

Results

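The epiblast cells of the mouse blastocyst at embryonic day 4.5 were picked out of a single-cell RNA library by marker RNA and set against the primitive endoderm and trophectoderm cells of the same library. A cell barcode was kept with at least 1000 UMIs (unique molecular identifiers, each standing for 1 captured RNA molecule), 500 or more genes seen and no more than 25% mitochondrial UMIs. For each barcode 3 scores were formed. The epiblast score was the sum of the UMIs of Nanog, Tdgf1, Sox2, Fgf4, Gdf3, Klf2 and Trh, the primitive endoderm score that of Gata4, Gata6, Sox17, Pdgfra and Foxq1, and the trophectoderm score that of Krt18, Tspan8, Dppa1 and Gata3. A cell belonged to the epiblast when its epiblast score was at least 5 and at least 2 times each of the other scores, and the other lineages were defined in the same way. The rule gave 252 epiblast cells among the 1097 kept barcodes of the library (23.0%, exact Clopper-Pearson 95% interval 20.5 to 25.6), out of 6425 kept barcodes in the whole series. It gave 425 primitive endoderm cells (38.7%) and 374 trophectoderm cells (34.1%), and left 46 barcodes in no group (4.19%).

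The series holds 1 library of embryoids and 1 library of whole B6C3F1 embryos, both from polyadenylated RNA with the BD Rhapsody whole transcriptome kit and 6000 dissociated cells each. The embryoids were aggregates, cultured for 48 h in aggregation wells and 48 h in repellent plates, of ES cells from Lifeact-RFPRuby mice with XTE cells, made by reprogramming ES cells that carry Gata6-H2B:venus. The ES cells had been kept with Lif and the inhibitors PD0325901 and CHIR99021, and the XTE cells with CHIR99021, BMP4, Fgf4, heparin and Activin. How many embryos were pooled, and from which litters, is not given in the sources used here, and cells of both sexes were present. With 1 library a group has no replicate, cells of 1 library are not replicates, and no p-value was computed. Summed UMIs were scaled to the same total in each group and are given as CPM, and every interval below is an exact 95% interval that covers counting error only.

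The epiblast is the lineage that gives rise to the embryo itself, and its cells hold the state called naive pluripotency, kept by transcription factors such as Nanog, Klf4 and Esrrb, before they pass to a formative and then a primed state marked by Otx2 and Lef1. It sends Fgf4 to the primitive endoderm and trophectoderm, which receive it through Fgf receptors, and it uses Nodal and BMP signals within the embryo. In female mouse embryos the X chromosome that came from the father is silenced with the help of Xist RNA, and this silencing is undone in the epiblast while it persists in the extraembryonic lineages.

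A pair of stretches of DNA just before the start sites of epiblast genes is shown, because Nanog's holds letters that match a joint motif of Oct4 and Sox2, factors at the centre of the pluripotency network, and the other holds the octamer letters of Oct4. They were taken from RefSeq on the build GRCm38.p6. Nanog, a gene of the rule, lies on the plus strand and the stretch is chr6:122707239-122707488. Spp1, of the naive list, also lies on the plus strand and its stretch is chr5:104435942-104436191. Each stretch is the 250 bases before the start site, and the capitals mark the match.
Nanog: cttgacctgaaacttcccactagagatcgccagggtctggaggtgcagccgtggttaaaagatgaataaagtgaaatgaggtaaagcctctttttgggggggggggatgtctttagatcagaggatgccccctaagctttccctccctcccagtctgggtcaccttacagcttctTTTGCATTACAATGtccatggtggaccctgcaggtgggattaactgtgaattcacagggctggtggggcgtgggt
Spp1: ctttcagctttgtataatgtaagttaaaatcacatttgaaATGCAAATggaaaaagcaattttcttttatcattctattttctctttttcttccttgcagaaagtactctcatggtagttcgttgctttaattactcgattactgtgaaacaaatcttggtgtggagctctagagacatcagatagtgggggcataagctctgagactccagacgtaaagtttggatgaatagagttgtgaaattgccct
In Nanog the capitals match a joint motif, the Oct4 letters TTTGCAT, 1 base of any kind and the Sox2 letters ACAATG, at bases 176 to 189, whose first base lies 75 bases before the start site. Searched on both strands in all 32851 promoter windows of 250 bases before and 50 after a start site, this joint motif was found in 2 windows, both of Nanog. In Spp1 the capitals are ATTTGCAT, the Oct4 octamer, on the minus strand at bases 41 to 48. The octamer overlaps the first letters of the joint motif and was found in 570 windows (1.74%). It was found in 13 of the 485 genes with a window that stood at least 2-fold higher in epiblast than in both other lineages (2.68%), in 110 of the 7182 genes compared that had a window (1.53%), and in 2 of 12 genes of the naive list, Spp1 and Zfp42. A match is a description of the letters and no evidence of binding.

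The epiblast cells had a median of 9921 UMIs (1391 to 23721) and 3576.5 genes per cell, against 9645 UMIs and 3555 genes in primitive endoderm and 8653 UMIs and 2938.5 genes in trophectoderm. The median mitochondrial share was 9.65% in epiblast, 9.38% in primitive endoderm and 11.8% in trophectoderm, and 5, 47 and 13 cells of these groups had less than 1%. Under 4000 UMIs had 23 of the 252 epiblast, 77 of the 425 primitive endoderm and 40 of the 374 trophectoderm cells. The summed profiles held 2647840, 4038622 and 3594394 UMIs. Scrublet called 3 epiblast cells doublets, against 0 primitive endoderm and 2 trophectoderm cells. The embryoid library shared 9 barcodes with the blastocyst library, 4 of them epiblast cells.

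The members were chosen by their UMIs of the score genes, and the values of these genes are given as a description, with no test. The epiblast score ran from 5 to 115 with a median of 45.5 in epiblast cells, and 197 of the 252 had a primitive endoderm score of 0 and 216 a trophectoderm score of 0. Tdgf1, the co-receptor for Nodal, was at 1691 CPM in epiblast, 38.4 CPM in primitive endoderm and 4.17 CPM in trophectoderm. Fgf4 was at 259, 0.248 and 0.556 CPM in these groups, Sox2 at 667, 19.8 and 3.62 CPM, and Trh, the precursor of thyrotropin-releasing hormone, at 499.6, 1.49 and 0.556 CPM. Nanog was at 362, 9.16 and 23.1 CPM, Klf2 at 849.8, 13.4 and 49.2 CPM, and Gdf3, a ligand of the TGF-beta family, at 186, 33.4 and 1.11 CPM. The 6 members nearest the threshold, with a score of 5 to 7, had 1429 to 2824 UMIs, and the 6 barcodes just outside, with a score of 3 or 4, had 1326 to 3146 UMIs. A further 43 kept barcodes reached an epiblast score of 5 without being members, because another score was too close or higher.

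**Figure D1:**
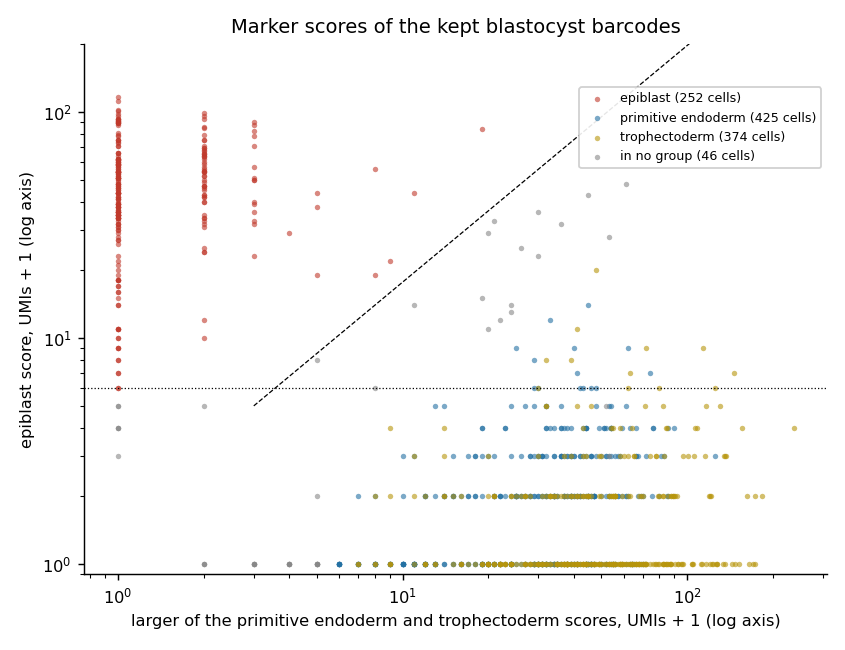
Epiblast score (vertical axis, UMIs plus 1, log scale) against the higher of the primitive endoderm and trophectoderm scores (horizontal axis, UMIs plus 1, log scale) for the 1097 kept barcodes of the blastocyst library, each point 1 barcode, coloured by group. The dotted line marks the least epiblast score of 5 and the dashed line an epiblast score 2 times the other one. The 252 epiblast cells have scores of 5 to 115, and the 46 barcodes of no group have 3 low scores or no score that is 2 times each of the others.

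Genes outside the rule gave the same lineage names. Of 20 further primitive endoderm genes, all compared, 20 were at least 2-fold lower in epiblast than in primitive endoderm, where 14.0% of the 9727 genes compared were lower by that much. The collagen chain Col4a1 was at 34.7 CPM in epiblast and 2441 CPM in primitive endoderm, the transcription factor Foxa2 at 0.378 and 112 CPM, and the uptake receptor Cubn at 0.378 and 389.7 CPM. Of 19 further trophectoderm genes compared, 18 were at least 2-fold lower in epiblast than in trophectoderm (background 14.2%), among them Cdx2, which specifies the lineage, at 1.89 CPM in epiblast and 294 CPM in trophectoderm. The keratin Krt7 and the ectoenzymes Entpd1 and Enpp1 had 0 UMIs in epiblast, so they were at least 47.9-fold, 183-fold and 179-fold lower than in trophectoderm against a floor of 3 UMIs over the profile. The exception was Tead4, a partner of the Hippo pathway that acts in early trophectoderm, at 85.7 CPM in epiblast and 106 CPM in trophectoderm. Per 10000 UMIs of a cell, the primitive endoderm list summed to 0 to 80.1 with a median of 11.2 in epiblast cells, against a median of 217 in primitive endoderm cells and 16.6 in trophectoderm cells. The trophectoderm list summed to 0 to 25.9 with a median of 4.00 in epiblast cells, against 3.03 in primitive endoderm and 66.7 in trophectoderm cells. RNA of maternal blood and stroma was near 0, and Pecam1, which naive pluripotent cells also express, was the sole gene of that list with enough RNA to compare.

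Across the 9727 genes with a mean of at least 5 CPM over the 3 groups, without the genes of the rule, 998 (10.3%) were 2-fold or more higher and 1359 (14.0%) 2-fold or more lower in epiblast than in primitive endoderm. Against trophectoderm 2280 (23.4%) were higher and 1383 (14.2%) lower. Against both, 670 (6.89%) were higher and 628 (6.46%) lower. These calls compare log2 ratios after 1 CPM was added to each level, whereas the folds given below are ratios of the levels themselves. The median log2 ratio over all genes compared was -0.04 for epiblast over primitive endoderm and 0.30 for epiblast over trophectoderm, so a list is read against these values. With median-of-ratios scaling, which takes out a shift of 0.30, the split against trophectoderm became 1628 higher and 1809 lower. All comparisons share the epiblast cells.

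Outside the rule, 20 genes led in their ratio over both other lineages. Gjc1, a connexin of gap junctions, was at 169.6 CPM (154 to 186) in epiblast, 0.495 CPM in primitive endoderm and 0.556 CPM in trophectoderm. Morc1, known for silencing transposons in the male germ line, was at 257, 2.23 and 0.556 CPM. Cobl, which nucleates actin filaments, was at 147, 0.248 and 0.556 CPM. Igfbp2, which binds insulin-like growth factors, was at 164, 0.990 and 0.556 CPM. In these genes the other lineages held 1 to 9 UMIs in their whole profiles. Ifitm1, an interferon-induced membrane protein, was at 123 CPM in epiblast and 0.743 CPM in primitive endoderm, and at least 147.5-fold higher than in trophectoderm, which had 0 UMIs. Notum, an enzyme that inactivates Wnt proteins by taking off their lipid, was at 100.1 CPM in epiblast and 0.495 CPM in primitive endoderm, and at least 119.9-fold higher than in trophectoderm. Eras, a Ras protein of embryonic stem cells, was at 57.8 CPM in epiblast and 0.248 CPM in primitive endoderm and at least 69.2-fold higher than in trophectoderm. The other genes of these 20 were Prdm14, Foxd3, Otx2 and Lef1, described with pluripotency, and Mcf2, Enox1, Uchl1, Adam23, Tcea3, Ptgs1, Tnfrsf8, Exoc3l and Sept1, at 34.4 to 229.6 CPM in epiblast and at most 7.23 CPM elsewhere.

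The 10 genes with the smallest ratios were high in both extraembryonic lineages and low in the epiblast. Dab2, an adaptor for endocytosis, was at 11.3 CPM in epiblast, 1255 CPM in primitive endoderm and 1004 CPM in trophectoderm. Lrp2, the large uptake receptor megalin that Dab2 serves, was at 4.53, 281 and 133.5 CPM. Fgfr2, a receptor for Fgf4, was at 3.78 CPM in epiblast, 199 CPM in primitive endoderm and 317 CPM in trophectoderm. Serpine2, a protease inhibitor, was at 2.64, 108 and 148 CPM, and Timd2 at 3.02, 345 and 299.9 CPM. Ubash3b and Capn6 had 0 UMIs in epiblast, and Xist was at 3.02, 184 and 141 CPM.

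**Figure D2:**
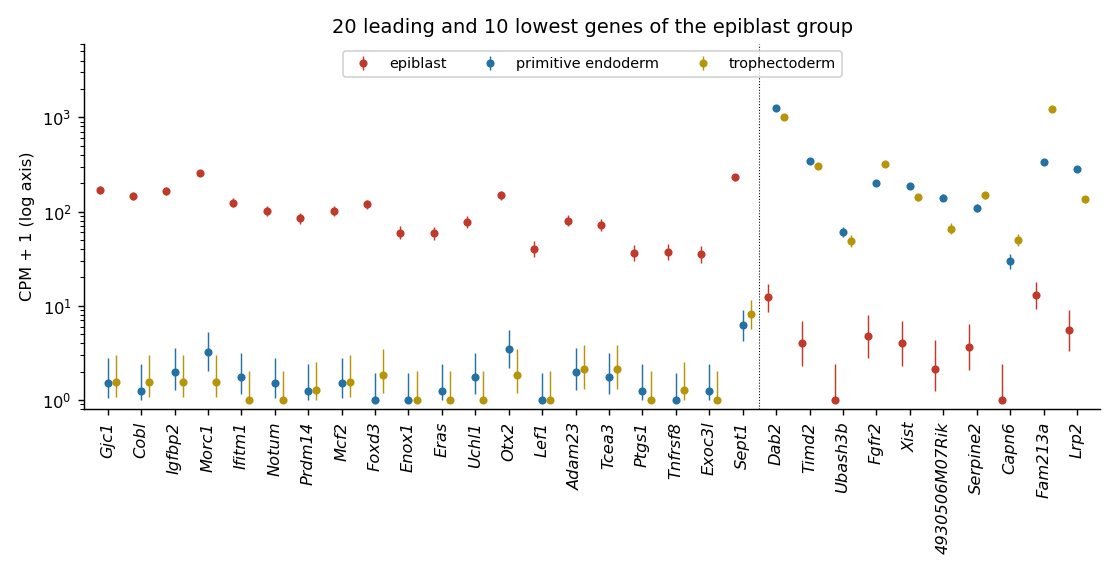
Levels (CPM plus 1, log scale, vertical axis) of the 20 genes with the largest and the 10 genes with the smallest ratio of epiblast to both other lineages (horizontal axis, parted by a dotted line), with 1 point for the summed profile of each group and a bar for its exact Poisson 95% interval. Epiblast points of the 20 genes lie at 34.4 CPM or more and those of the other groups at 7.23 CPM or less, and for the 10 genes, such as Dab2, the order is turned round.

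Most naive pluripotency genes stood higher in epiblast cells. Of 20 genes, all compared, 14 were at least 2-fold higher and 1 lower in epiblast than in primitive endoderm, and 14 higher and 0 lower than in trophectoderm. Against both, 11 of 20 were higher, where the background was 6.89%. Higher and lower shares over all genes were 10.3% and 14.0% against primitive endoderm and 23.4% and 14.2% against trophectoderm. The median log2 ratio was 1.84 over primitive endoderm and 4.28 over trophectoderm. Klf4, a factor that holds the naive state, was at 777 CPM (744 to 812) in epiblast, 327 CPM in primitive endoderm and 86.5 CPM in trophectoderm. Esrrb, a nuclear receptor of the same network, was at 355, 143.1 and 15.0 CPM, so that primitive endoderm held an intermediate level of both genes. Prdm14, which opposes de novo DNA methylation and Fgf receptor signalling, was at 84.2 CPM in epiblast with 1 UMI in each of the other profiles, a ratio of 340 (60.4 to 13494) over primitive endoderm. In cells thinned to 4000 UMIs, a Prdm14 UMI was seen in 31.9% of 229 epiblast cells, 0 of 348 primitive endoderm cells and 0.299% of 334 trophectoderm cells, and without thinning in 46.0%, 0.235% and 0.267% of cells. Tdh, the threonine dehydrogenase that mouse pluripotent cells depend on, was 14.5-fold (12.1 to 17.5) higher than in primitive endoderm and 167-fold (90.3 to 349) higher than in trophectoderm. Spp1, the secreted protein osteopontin whose promoter is printed above, was at 516, 126 and 13.1 CPM. Mylpf, a myosin light chain, was at 1326, 61.9 and 129.9 CPM, and the adhesion protein Jam2 at 182, 9.90 and 1.67 CPM.

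Some naive genes were not specific to the epiblast. Tfcp2l1, a transcription factor downstream of Lif, was at 430 CPM (405 to 456) in epiblast, 85.7 CPM in primitive endoderm and 320 CPM in trophectoderm, and Nr5a2, an orphan nuclear receptor, at 80.1, 8.67 and 127 CPM. Tbx3, a T-box factor, was at 406 CPM in epiblast, 486 CPM in primitive endoderm and 73.4 CPM in trophectoderm. Klf5 was at 219.8, 449.9 and 367 CPM, 2.05-fold lower in epiblast than in primitive endoderm. Fbxo15 was at 664, 852 and 1009 CPM, and against trophectoderm Dppa3 was 1.04-fold lower and Zfp42 1.07-fold higher.

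The core pluripotency list, 14 genes after those of the rule, had 4 higher and 0 lower genes against primitive endoderm and 11 higher and 0 lower against trophectoderm, with medians of 0.75 and 1.74. Shares over all genes were 10.3% and 14.0% against primitive endoderm and 23.4% and 14.2% against trophectoderm. Utf1, a chromatin protein of pluripotent cells, was at 969.9 CPM in epiblast, 348 CPM in primitive endoderm and 67.9 CPM in trophectoderm, and Dppa4 at 194.5, 73.8 and 33.4 CPM. Sall4 was at 488, 569 and 295 CPM and Lin28a, which blocks let-7 maturation, at 179.8, 304 and 17.8 CPM. Pou5f1, the gene of Oct4, was counted at 56.6 CPM (47.9 to 66.5) in epiblast, 31.7 CPM in primitive endoderm and 1.95 CPM in trophectoderm. Copies of this gene elsewhere in the genome may share its reads, and how such reads were counted is not given in the sources used here, so its level is uncertain.

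Most of the formative genes that could be compared also stood higher in epiblast cells, but their summed RNA did not exceed that of primitive endoderm. Of 14 formative and primed genes compared, out of 22 in the list, 10 were at least 2-fold higher and 3 lower than in primitive endoderm. Against trophectoderm 10 were higher and 1 lower, and 9 were higher than both. In the same order the shares over all genes were 10.3%, 14.0%, 23.4%, 14.2% and 6.89%. A gene near 0 in the other groups passed the filter of 5 CPM on the mean only through its epiblast level. Members under that mean were left out, so the filter itself favours higher calls. The median log2 ratio was 1.74 over primitive endoderm and 4.87 over trophectoderm, or 4.88 with genes at 0 UMIs set at their bound. Otx2, the factor that drives the passage out of the naive state, was at 147 CPM (133 to 163) in epiblast, 2.48 CPM in primitive endoderm and 0.835 CPM in trophectoderm. An Otx2 UMI was seen in 36.7% of thinned epiblast cells, 1.72% of primitive endoderm and 0.299% of trophectoderm cells, and in 59.5%, 1.88% and 0.535% without thinning. Foxd3, a forkhead factor, was at 119 CPM in epiblast and at least 160-fold higher than in primitive endoderm, and Lef1, a transcription factor of Wnt signalling, was at 39.3 CPM and had 0 UMIs in both other profiles. Zic2 and Zic5, zinc finger factors, were at 73.6 and 88.4 CPM in epiblast and at most 10.6 CPM elsewhere. Fgf5, T and Pou3f1, genes of the later primed state, stayed at 2.64, 0.755 and 3.78 CPM in epiblast. Lower than in primitive endoderm were Dnmt3a (9.09-fold, 7.29 to 11.5), Dnmt3b (2.25-fold, 2.11 to 2.41) and Car4. Summed over the genes compared, the list was at 1309.7 CPM in epiblast, 1483.2 CPM in primitive endoderm and 804.6 CPM in trophectoderm. Dnmt3b alone gave 417, 941 and 381 CPM of these sums. Per thinned cell the list had a median of 4 UMIs in epiblast, 5 in primitive endoderm and 3 in trophectoderm.

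**Figure D3:**
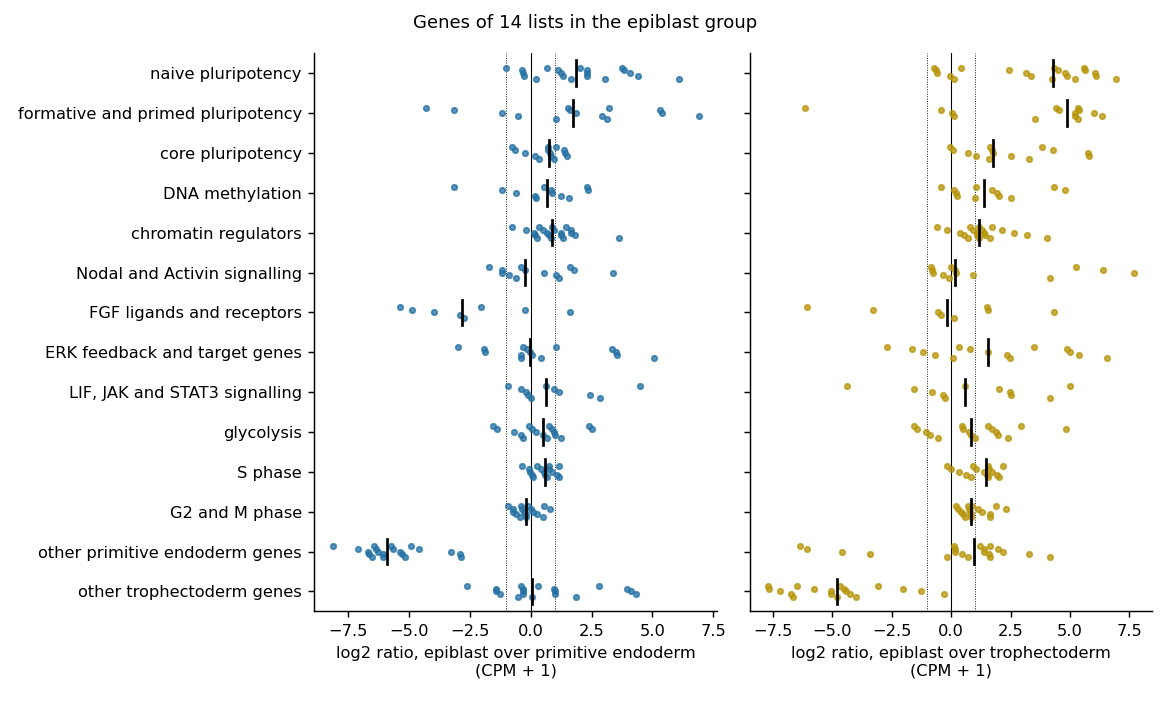
Log2 ratio of epiblast over primitive endoderm (left panel) and over trophectoderm (right panel) for the compared genes of 14 lists, each point 1 gene and each black bar the median of a list. The solid line marks equal levels and the dotted lines a 2-fold ratio either way. Over all 9727 genes the medians are -0.04 and 0.30. The naive list has medians of 1.84 and 4.28, and the primitive endoderm and trophectoderm lists stand at -5.92 and -4.81 against their own lineages.

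Ligand and receptor RNA of the FGF pathway was divided between the lineages. While Fgf4 was almost wholly epiblast RNA by the rule, Fgfr2 was 52.6-fold (28.5 to 110) lower in epiblast than in primitive endoderm and 83.9-fold (45.5 to 175) lower than in trophectoderm. Fgfr1 was at 84.2 CPM (73.5 to 96.0) in epiblast, 27.2 CPM in primitive endoderm and 115 CPM in trophectoderm. Fgfr3 had 1 UMI in epiblast and stood at 39.9 CPM in primitive endoderm, Fgfr4 was at 1.51, 9.41 and 23.9 CPM, and Fgf10, a further ligand, was at 46.8, 354 and 1.39 CPM. In all, of 8 FGF ligands and receptors compared, 1 was at least 2-fold higher and 6 lower than in primitive endoderm, and 3 higher and 2 lower than in trophectoderm. Shares over all genes, for this list and the next, were 10.3% and 14.0% against primitive endoderm and 23.4% and 14.2% against trophectoderm. Targets and brakes of ERK, the kinase that FGF receptors switch on, were mixed: of 15, 5 were higher and 3 lower than in primitive endoderm, and 8 higher and 3 lower than in trophectoderm. Etv5, a factor induced by ERK, was at 299 CPM in epiblast, 25.3 CPM in primitive endoderm and 2.23 CPM in trophectoderm, and Etv1 and Etv4 were also higher than in both. Dusp6, a phosphatase that turns ERK off, was at 77.4, 6.69 and 179 CPM, and Ccnd1, the cyclin D1 gene, at 125, 2.72 and 23.6 CPM. The related phosphatase Dusp4 was at 25.3 CPM in epiblast and 95.6 CPM in primitive endoderm, and Phlda1 at 13.6 CPM in epiblast, 115 CPM in primitive endoderm and 45.3 CPM in trophectoderm.

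Nodal, the TGF-beta ligand that keeps the epiblast pluripotent, was at 83.8 CPM (73.2 to 95.6) in epiblast and 7.18 CPM in primitive endoderm, and at least 100.5-fold higher than in trophectoderm, which had 0 UMIs. Its inhibitor and target Lefty2 was at 439, 129 and 1.11 CPM, while the paralogue Lefty1 was at 48.0 CPM in epiblast and 89.1 CPM in primitive endoderm. Furin, a protease that ripens Nodal, was at 22.3, 76.3 and 38.7 CPM, and the receptor Acvr1b and the transducer Smad2 were 2.34-fold and 2.31-fold lower in epiblast than in primitive endoderm. Over the 13 genes of the pathway compared, 5 were higher and 3 lower than in primitive endoderm, and 4 higher and 0 lower than in trophectoderm. The median log2 ratio over trophectoderm was 0.16, against 0.30 over all genes. Shares over all genes, here and for the BMP genes below, were 10.3% and 14.0% against primitive endoderm and 23.4% and 14.2% against trophectoderm. Bmp4 was at 83.8 CPM in epiblast, 6.44 CPM in primitive endoderm and 1.67 CPM in trophectoderm. Among the Id genes, which BMP signals induce, Id3 was at 475 CPM (450 to 502) in epiblast, 33.4 and 54.8 CPM elsewhere, and Id4 at 27.2, 1.24 and 1.39 CPM. Id1 was lower in epiblast than in primitive endoderm, at 1.13, 16.1 and 0.835 CPM. Id2 was near its primitive endoderm level and lower than in trophectoderm, at 51.4, 50.0 and 1739 CPM. Of 10 BMP genes, 4 were higher and 2 lower than in primitive endoderm and 4 higher and 1 lower than in trophectoderm.

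Of the 4 Tcf and Lef transcription factors of Wnt signalling, Lef1, Tcf7 and Tcf7l1 were 2-fold or more higher in epiblast than in both other lineages, while Tcf7l2 was at 63.8 CPM in epiblast, 57.4 CPM in primitive endoderm and 35.1 CPM in trophectoderm. Tcf7l1, the repressor of Wnt targets in pluripotent cells, was at 334 CPM (313 to 357) in epiblast, 103 CPM in primitive endoderm and 33.9 CPM in trophectoderm, and Tcf7 was at 24.5 CPM in epiblast and 9.66 CPM in primitive endoderm with 0 UMIs in trophectoderm. The receptor Fzd5 was at 94.4, 29.5 and 12.2 CPM. The antagonist Dkk1 was at 5.66 CPM in epiblast and 494 CPM in primitive endoderm, and the ligand Wnt7b had 0 UMIs in epiblast and 69.3 CPM in trophectoderm. Of 15 Wnt genes, 4 were higher and 2 lower than in primitive endoderm and 8 higher and 1 lower than in trophectoderm. Shares over all genes, for this list and the next, were 10.3% and 14.0% against primitive endoderm and 23.4% and 14.2% against trophectoderm. Of 11 genes of Lif signalling, 4 were higher and 0 lower than in primitive endoderm, and 5 higher and 2 lower than in trophectoderm. The receptor Lifr was at 76.7 CPM in epiblast, 77.3 CPM in primitive endoderm and 1.39 CPM in trophectoderm, and the targets Socs3 and Pim1 were 2.29-fold and 5.57-fold higher than in primitive endoderm. Lif itself was at 1.89, 0.495 and 59.3 CPM.

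Of 14 ligands to neighbouring cells, 5 were 2-fold or more higher and 9 lower in epiblast than in primitive endoderm, against 10.3% and 14.0% over all genes. The median log2 ratio was -1.60, or -1.31 with genes at 0 UMIs at their bound. Against trophectoderm 5 were higher and 6 lower (23.4% and 14.2% over all genes), with a median log2 ratio of -0.44 (0.30 over all genes). Pdgfa, whose receptor Pdgfra marks the primitive endoderm, was at 533 CPM (505 to 561) in epiblast, 94.8 CPM in primitive endoderm and 557 CPM in trophectoderm. Jag1, a Notch ligand, was at 14.0, 0.248 and 1.11 CPM. The growth factor Igf2 was at 4.53, 65.4 and 214 CPM, the ephrin Efnb1 at 1.13 CPM in epiblast and 73.4 CPM in trophectoderm and 18.6-fold (6.14 to 91.9) lower than in primitive endoderm, and Vegfa at 19.6, 68.3 and 35.3 CPM.

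RNA for the writing and reading of DNA methylation differed by enzyme. Tet1, which oxidises methylated cytosine, was at 418 CPM (394 to 444) in epiblast, 82.2 CPM in primitive endoderm and 14.2 CPM in trophectoderm, and a UMI was seen in 75.5%, 26.4% and 4.49% of thinned cells (92.1%, 44.5% and 11.2% unthinned). Uhrf1 and Dnmt1, which copy methylation at replication, were 2.97-fold and 1.83-fold higher than in primitive endoderm and 5.81-fold and 4.09-fold higher than in trophectoderm. The de novo enzyme Dnmt3a was at 32.1, 292 and 44.2 CPM, Dnmt3b at 417, 941 and 381 CPM, and their cofactor Dnmt3l at 592, 410 and 178 CPM. Zfp57 and Trim28, which protect methylation at imprinted genes, were at 199 and 1065 CPM in epiblast, 39.6 and 449 CPM in primitive endoderm and 8.90 and 276 CPM in trophectoderm. In the list 4 of 12 genes were higher and 2 lower than in primitive endoderm, and 8 higher and 0 lower than in trophectoderm, with medians of 0.68 and 1.39. Shares over all genes, for this list and the next, were 10.3% and 14.0% against primitive endoderm and 23.4% and 14.2% against trophectoderm. Of 20 other chromatin regulators, 8 were higher than in primitive endoderm, 13 higher than in trophectoderm, and 0 lower than in either, with medians of 0.85 and 1.18. Phc1, a subunit of Polycomb complex 1, was 13.0-fold (10.01 to 17.2) and 18.0-fold (13.0 to 25.5) higher than in these groups. Rif1, which guards replication timing, was at 705, 201 and 75.4 CPM, Jarid2, a cofactor of Polycomb complex 2, at 608, 193 and 421 CPM, and Hdac1 at 273, 85.4 and 82.6 CPM.

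In metabolism the epiblast stood apart in single genes more than in lists. Of 17 glycolysis genes, 3 were higher and 2 lower than in primitive endoderm, and 8 higher and 3 lower than in trophectoderm. Pkm, the pyruvate kinase of growing cells, was at 744 CPM (712 to 778) in epiblast, 374 CPM in primitive endoderm and 97.4 CPM in trophectoderm, and Pfkp, a phosphofructokinase, at 91.8, 15.1 and 2.23 CPM. Slc2a3, a glucose transporter, was at 242, 639 and 715 CPM. Slc7a3, a carrier of arginine and lysine, was 83.5-fold (56.7 to 128) higher than in primitive endoderm and 13.7-fold (11.5 to 16.4) higher than in trophectoderm, while Slc38a1, a glutamine carrier, was at 11.7, 82.9 and 69.6 CPM. Of 11 amino acid transporters, 2 were higher and 4 lower than in primitive endoderm, where 10.3% of all genes compared were higher and 14.0% lower. Against trophectoderm 6 were higher and 4 lower (23.4% and 14.2% over all genes). Of 16 genes of threonine, serine and one-carbon metabolism, 2 were higher, Tdh and the glycine cleavage enzyme Gldc (266, 114 and 105 CPM), and 2 lower, Phgdh and Psph of serine synthesis, than in primitive endoderm, and 7 were higher and 1 lower than in trophectoderm. Of 18 respiratory chain genes, 1 was higher and 0 lower than in primitive endoderm and 0 differed by 2-fold from trophectoderm. All these counts of metabolic lists are to be read against the same shares over all genes.

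Cell cycle genes differed from trophectoderm more often than from primitive endoderm. Of 16 S phase genes, 3 were higher and 0 lower than in primitive endoderm, where 10.3% of all genes compared were higher, and 10 higher and 0 lower than in trophectoderm, where 23.4% were. The medians were 0.57 and 1.46. Mcm6, of the replicative helicase, was at 467 CPM (441 to 494) in epiblast, 221 CPM in primitive endoderm and 141 CPM in trophectoderm. Of 17 G2 and M phase genes, 0 differed by 2-fold from primitive endoderm and 6 were higher than in trophectoderm. Of 16 genes of MYC and the nucleolus, 0 differed by 2-fold from primitive endoderm and 5 were higher than in trophectoderm, both counts to be read against the same 23.4%. Trp53, the gene of p53, was at 359, 109 and 49.0 CPM, and Bax, which triggers apoptosis, at 303, 142 and 140 CPM. Of 14 genes of p53 and apoptosis, 5 were higher and 0 lower than in primitive endoderm and 4 higher and 0 lower than in trophectoderm. Of 12 immediate early genes, which dissociation can induce, 3 were higher and 2 lower than in primitive endoderm and 3 higher and 5 lower than in trophectoderm. For the p53 and immediate early lists the shares over all genes were 10.3% and 14.0% against primitive endoderm and 23.4% and 14.2% against trophectoderm.

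Junction genes were lower in epiblast than in the trophectoderm epithelium more often than genes at large. Of 17, 8 were lower than in trophectoderm, against 14.2% of all genes, while 4 were higher, close to the 23.4% of all genes. Against primitive endoderm 5 were higher and 4 lower (10.3% and 14.0% over all genes). Epcam, an adhesion protein, was at 521 CPM (494 to 549) in epiblast, 228 CPM in primitive endoderm and 1785 CPM in trophectoderm, and Cdh1, the E-cadherin gene, at 201, 209.5 and 357 CPM. Cldn4, a tight junction protein, was at 41.2, 1.73 and 959 CPM. Cdh3, the P-cadherin gene, was at 23.0, 0.743 and 6.40 CPM. Among 13 imprinted genes, 5 were higher and 2 lower than in primitive endoderm and 5 higher and 2 lower than in trophectoderm, against 10.3%, 14.0%, 23.4% and 14.2% over all genes in the same order. Snrpn was at 151, 27.2 and 80.4 CPM and Plagl1, a zinc finger factor, at 30.2, 0.743 and 4.73 CPM. The growth-limiting noncoding RNA H19 was at 7.55 CPM in epiblast, 41.8 CPM in primitive endoderm and 1564 CPM in trophectoderm.

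RNA of the X chromosome differed between epiblast cells by whether Y-linked RNA was seen. Cells were split, after the data had been seen, by the UMIs of the Y-linked genes Ddx3y, Eif2s3y, Kdm5d and Uty. A cell with at least 1 such UMI is read as coming from a male embryo, whereas a cell with 0 is from a female embryo or from a male one in which they were missed. X-linked genes without Xist and Tsix, 850 genes in all, took a median of 3.89% of the non-mitochondrial UMIs in the 150 epiblast cells with 0 Y-linked UMIs, against 2.51% in the 102 with at least 1. At least 3% was reached by 125 of the 150 and by 1 of the 102. In primitive endoderm it was reached by 110 of 249 cells with 0 and 7 of 176 with at least 1. In trophectoderm it was reached by 187 of 248 and by 78 of 126. In primitive endoderm the medians were 2.92% in 249 cells with 0 and 2.54% in 176 cells with at least 1, and in trophectoderm 3.42% in 248 cells and 3.20% in 126 cells. Summed over cells, the share without Y-linked RNA over that with it was 1.53 (1.51 to 1.55) in epiblast, 1.16 (1.14 to 1.17) in primitive endoderm and 1.07 (1.06 to 1.08) in trophectoderm. These intervals hold the counting error of pooled UMIs and not the spread between cells or embryos, so they give no test between lineages. Between the epiblast cells without and with Y-linked UMIs the median depth was 10427 and 9480.5 UMIs and the median mitochondrial share 9.70% and 9.65%. In the other lineages the cells without Y-linked UMIs were the shallower ones. Their median depth was 9268 against 10285 UMIs in primitive endoderm and 7954 against 10613 UMIs in trophectoderm. In cells thinned to 4000 UMIs, with shallower cells left out, the ratios were 1.54 in epiblast, 1.16 in primitive endoderm and 1.08 in trophectoderm. The split by Y-linked UMIs was still made before thinning, and the part of depth in that split was not tested.

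**Figure D4:**
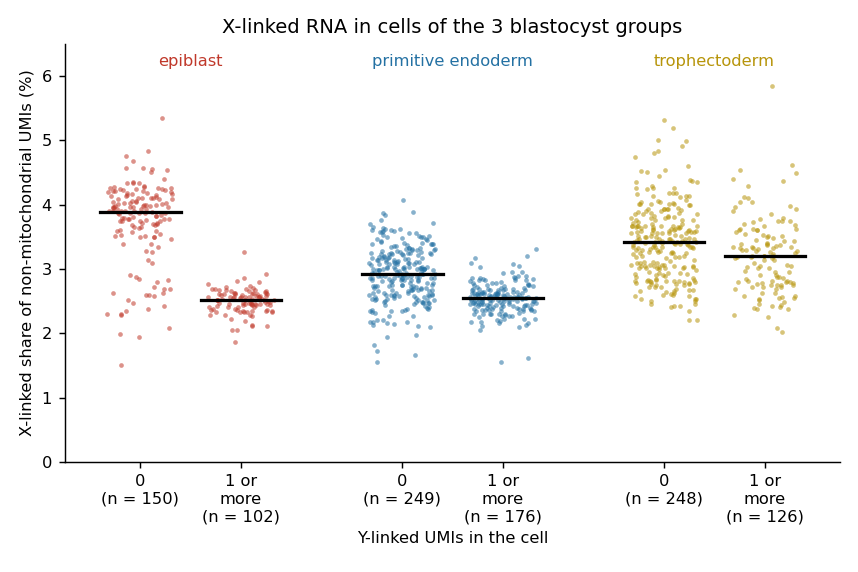
X-linked share of the non-mitochondrial UMIs (vertical axis, percent) in each cell, by lineage and by whether 0 or at least 1 Y-linked UMI was seen (horizontal axis); each point is 1 cell and each line a median. Among epiblast cells the medians are 3.89% with 0 and 2.51% with at least 1 Y-linked UMI, and the gap is narrower in primitive endoderm (2.92% and 2.54%) and trophectoderm (3.42% and 3.20%).

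The difference was spread over many X-linked genes. Of 202 X-linked genes at 20 CPM or more in epiblast, 99 (49.0%) were at least 1.5-fold higher in the cells without Y-linked RNA, against 144 of 5986 autosomal genes (2.41%). In primitive endoderm this held for 20 of 221 X-linked genes (9.05%), against 66 of 6256 autosomal genes (1.06%), and in trophectoderm for 17 of 185 (9.19%), against 139 of 5684 (2.45%). Atrx, a chromatin remodeller, was at 1026 CPM in epiblast cells without and 552 CPM in those with Y-linked RNA, a ratio of 1.86 (1.68 to 2.06), against 1.13 (1.00 to 1.29) in primitive endoderm and 1.15 (0.964 to 1.37) in trophectoderm. Sms, the spermine synthase gene, had a ratio of 1.97 (1.72 to 2.25) in epiblast, 1.31 in primitive endoderm and 1.13 in trophectoderm, and Huwe1, a ubiquitin ligase, of 1.82, 1.20 and 1.25. Rps4x, a ribosomal protein gene, had like ratios in all groups, 1.58 in epiblast, 1.5 in primitive endoderm and 1.46 in trophectoderm. A Xist UMI was seen in 3 of the 150 epiblast cells without Y-linked RNA (2.00%), against 147 of 249 primitive endoderm cells (59.0%) and 135 of 248 trophectoderm cells (54.4%) of that kind. Among cells with Y-linked RNA it was seen in 3 of 102 epiblast cells (2.94%), 8 of 176 primitive endoderm cells (4.55%) and 3 of 126 trophectoderm cells (2.38%), cells that should lack this RNA.

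Variation among the epiblast cells was measured after each was thinned to 4000 UMIs, which left out 23 shallower cells and kept 229. The Fano factor, the variance of a gene's UMIs over their mean, was taken for the 2671 genes with a mean of at least 0.3 UMIs. Its median was 1.11, and 44 genes reached 2, of which 9 were mitochondrial. The cutoff of 2 and the ranking were not adjusted for a gene's mean, which was 91.6 UMIs for mt-Nd1, the gene with the largest Fano factor. Outside the mitochondrial genes the highest were the metallothioneins Mt2 (12.1; 0 to 77 UMIs per cell, median 13) and Mt1 (9.07; 0 to 47, median 6), which bind zinc and copper. Lefty2 followed with a Fano factor of 4.65 and a mean of 2.12 UMIs, 0 in the lowest cells and 18 in the highest, and it was seen in 53.7% of cells. Hsp90ab1 (3.49), the glycolytic enzyme Aldoa (3.12) and the mitotic cyclin Ccnb1 (3.06) completed the 15 leading genes. Klf4 (2.37), Trh (2.31), Atrx (2.22) and Tfcp2l1 (2.17), also above 2, were picked out after their values were seen.

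The naive list summed to 11 to 56 UMIs per thinned epiblast cell with a median of 25, against medians of 11 in primitive endoderm and 9 in trophectoderm. The glycolysis list summed to 3 to 46 UMIs with a median of 14. It was alike in primitive endoderm and trophectoderm, each with a median of 13 and a range of 2 to 47. Across the 229 epiblast cells the naive and glycolysis sums had a Spearman correlation of -0.46, and the naive and formative sums of -0.26. Between single genes, Klf4 and Ldha, lactate dehydrogenase A, were at -0.38. The naive sum was compared with 697 genes with a mean of at least 1 UMI, outside the naive list and the rule. Among them the most alike were Sod2, the mitochondrial superoxide dismutase (0.38), Tsc22d1 (0.35), Id3 (0.35) and Lefty2 (0.31). The least alike were Mt1 (-0.40), Aldoa (-0.39), Mt2 (-0.38), Ptma (-0.34) and Pkm (-0.33). These cells share 1 library. Total UMIs before thinning moved with both sums, at -0.36 with the naive and 0.40 with the glycolysis sum, and the mitochondrial share at -0.38 with the glycolysis sum. Their part in the correlation was not tested.

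**Figure D5:**
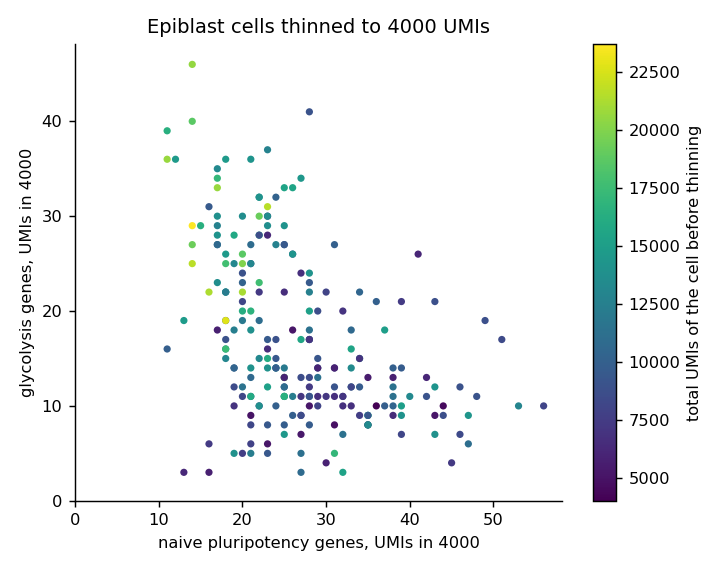
Summed UMIs of the glycolysis list (vertical axis) against those of the naive pluripotency list (horizontal axis) in the 229 epiblast cells thinned to 4000 UMIs, each point 1 cell, coloured by its total UMIs before thinning. Cells with a high naive sum tend to have a low glycolysis sum (Spearman correlation -0.46), and the deeper cells lie towards the high glycolysis sums.

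The same rule was then applied to the embryoid library, where it found 104 cells among 5328 kept barcodes (1.95%, 1.598 to 2.36), with a median of 6181 UMIs. Their epiblast score had a median of 23, against 45.5 in the blastocyst epiblast. Embryoid and embryo come from 1 library each, so the kind of sample, the cell line and the library cannot be told apart. Of 9931 genes compared, 1499 (15.1%) were at least 2-fold higher and 1017 (10.2%) lower in the embryoid cells than in the blastocyst epiblast, with a median log2 ratio of 0.07. Genes were compared when their mean over both profiles was at least 5 CPM. A gene near 0 in blastocyst epiblast thus passed only through its embryoid level, and the reverse. List members under that mean were left out, so in the lists below the filter itself favours higher calls among members near 0 in blastocyst epiblast. Primitive endoderm RNA moved with the embryoid cells too: of 14 further primitive endoderm genes compared, 10 were higher and 1 lower than in blastocyst epiblast, with a median log2 ratio of 1.38. The part of this RNA in the results that follow was not tested. The naive list had 1 gene higher and 10 lower of 20, with a median log2 ratio of -1.07, and the formative list 12 higher and 2 lower of 21, with a median of 1.32. Klf4 was at 163 CPM in embryoid cells and 777 CPM in blastocyst epiblast, 4.76-fold (3.92 to 5.83) lower. Tfcp2l1 and Prdm14 were 5.98-fold (4.48 to 8.15) and 8.03-fold (3.83 to 20.2) lower, Mylpf 11.6-fold (9.28 to 14.8) lower, and Esrrb was at 211 CPM in embryoid cells and 355 CPM in blastocyst epiblast. Zfp42, the exception, was at 271 CPM in embryoid cells and 93.3 CPM in blastocyst epiblast. Otx2 was 2.51-fold (2.13 to 2.95) higher in embryoid cells, Lef1 2.86-fold (2.10 to 3.89), Dnmt3a 6.86-fold (5.22 to 9.07) and Cd24a 5.05-fold (3.76 to 6.81). In the 3511 embryoid cells that met the rule for primitive endoderm, Otx2, Lef1 and Dnmt3a were at 2.94, 2.46 and 84.4 CPM, below the 370, 112 and 220 CPM of the 104 cells, while Cd24a was at 791 CPM there and 160 CPM in the 104 cells. Fgf5 was at 8.99 CPM in embryoid cells and 2.64 CPM in blastocyst epiblast, on 6 and 7 UMIs.

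Among lists outside pluripotency, several had more genes higher in the embryoid cells than the 15.1% of all genes compared. Glycolysis had 12 genes higher and 0 lower of 19, with a median log2 ratio of 1.29, and Eno1 and Pgk1 were 4.18-fold and 5.87-fold higher. Imprinted genes had 10 higher and 0 lower of 17, with Peg10, a retrotransposon-derived gene, at 303 CPM in embryoid cells and 12.5 CPM in blastocyst epiblast. Immediate early genes had 7 higher and 0 lower of 12, and genes of p53 and apoptosis 6 higher and 0 lower of 14, with the cell cycle inhibitor Cdkn1a at 246 CPM in embryoid cells and 31.3 CPM in blastocyst epiblast. In the 3511 embryoid cells of the primitive endoderm rule, Peg10, Cdkn1a and the immediate early gene Egr1 were at 819, 446 and 1250 CPM, above the 303, 246 and 568 CPM of the 104 cells, while the glycolysis genes Eno1 and Pgk1 were at 471 and 281 CPM, below their 1384 and 328 CPM. Lif signalling had 1 higher and 6 lower of 10, and chromatin regulators 0 of 20 in either direction. The genes highest in embryoid cells over blastocyst epiblast included S100g, at 141 CPM in embryoid cells and 0 UMIs in blastocyst epiblast, Spink3, at 157 and 0.378 CPM, and Igf2, at 261 and 4.53 CPM. These 3 stood at 1499, 858 and 2076 CPM in those embryoid cells of the primitive endoderm rule. The lowest included Khdc3, a protein of the maternal store of the egg, at 0 UMIs in embryoid cells and 185 CPM in blastocyst epiblast, and so at least 41.1-fold lower, and the water channel Aqp3, at 1.5 and 127 CPM.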

How the data were processed

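Single cells of 1 blastocyst library and 1 embryoid library were measured. The deposited files give raw UMI counts per gene symbol and cell barcode, made by the authors on the build mm10 with STAR 2.7.1a, Subread featureCounts 1.6.4, UMI-tools 1.0.1 and bcl2fastq 2.19.1.403, per the submitters' processing notes. Settings, annotation and cell calling: not given in the sources used here. In all, 28923930 UMIs in 5546 barcodes are in the embryoid file, and 11047555 UMIs in 1288 barcodes and 19307 genes in the blastocyst file.

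From these counts, groups were formed by the marker scores, UMIs were summed over each group and scaled to CPM, and log2 ratios were taken after 1 CPM was added to each level. Called means a ratio of 2-fold or more among genes with a mean of at least 5 CPM, without the 16 rule genes. Single levels carry exact Poisson intervals, ratios of counts exact conditional intervals and shares of cells exact Clopper-Pearson intervals, all at 95% and for counting error only. A level of 0 UMIs was bounded by a floor of 3 UMIs over the summed profile. For shares of cells and for variation, cells were thinned to 4000 UMIs (seed 1) and shallower ones left out. Doublets were called with Scrublet (scanpy 1.11.5) and kept, except in an alternative. Chromosomes came from GENCODE M21, which placed 18191 of the 19307 genes, with 97.1% of the UMIs. The tools were scipy 1.17.1, numpy 2.4.6, matplotlib 3.10.9, pandas 2.3.3 and Python 3.11.15, and the scripts were tested on simulated data.

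The 29 gene lists hold 457 genes, of which 421 matched a symbol. The members, the lists and the tests were chosen with earlier results of these data known. Genes named are the 20 with the largest ratio over both other lineages and the 10 with the smallest (at least 20 CPM), list members at 2-fold or at 50 CPM, the 15 with the largest Fano factor, the 10 highest and 10 lowest in embryoid cells, and the rule genes. The split by Y-linked UMIs, the genes compared with the naive sum and single list genes below those levels were chosen after their values were seen. Of the list of 2-cell genes, 2 of 10 matched and 0 could be compared. Of 16 pluripotency noncoding RNAs, 4 matched and 3 were compared, with 0 past 2-fold against primitive endoderm and 2 higher than in trophectoderm. Of 6 genes of X inactivation and the Y chromosome compared, 2 were higher and 1 lower than in primitive endoderm. Over all genes 10.3% were higher and 14.0% lower than in primitive endoderm, and 23.4% higher than in trophectoderm.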

Additional observations from a re-analysis of the deposited data

How the results depend on the processing

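No paired analysis was possible because each group has 1 library. For 12 counts and ratios under 109 alternatives, 86 stayed within 1.5 times the value (ratios within their interval) and 23 moved; for 60 single ratios under 780 alternatives 715 stayed and 65 moved, and for 54 list medians under 702 alternatives 684 stayed and 18 moved. None was reversed where the value was past 2-fold. The members were 140 with at most 10% mitochondrial UMIs. With 10 CPM added in place of 1, genes higher and lower than in primitive endoderm were 584 and 793, higher than in trophectoderm 1379, higher than both 437, and higher and lower in embryoid cells 703 and 508. With no filter on low genes, 1951 were higher than in primitive endoderm, 3636 than in trophectoderm and 1399 than both, and embryoid cells had 3210 higher and 2248 lower. With a mean of at least 20 CPM, fewer genes being compared, the counts were 544 and 783 against primitive endoderm, 1372 and 836 against trophectoderm, 356 against both, and 602 and 522 in embryoid cells. Overdispersed genes were 15 at 2000 and 87 at 6000 UMIs per cell. The X-linked ratio, whose alternatives were added after the data were seen, was 1.12 in primitive endoderm without the 10 leading X-linked genes and 1.02 in trophectoderm with at most 10% mitochondrial UMIs; the cause was not tested. In epiblast it ran from 1.51 to 1.54. With 1 library per group, none of these ranges holds the spread between embryos or litters, genes at a few UMIs are bounded only loosely, and the reads of gene copies such as those of Pou5f1 cannot be told apart.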

Other observations

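The 46 kept barcodes in no group had a median of 2832.5 UMIs, against 9320 over all kept barcodes. In 27 of them all 3 scores were under 5, 1 had a single score of at least 5, and 18 had 2 or 3 scores of at least 5. Among these 18, with overlaps, 13 had both an epiblast and a primitive endoderm score of that size, 6 both an epiblast and a trophectoderm score, and 5 both a primitive endoderm and a trophectoderm score, 2 of them with an epiblast score under 5. Scrublet called 13 of the 46 doublets (28.3%), against 3 of the 252 epiblast cells (1.19%).

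Of the 4 barcodes that an epiblast cell shared with the embryoid library, 3 fell into no group of the embryoid library and 1 met its rule for primitive endoderm.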
